A study of Drosophila melanogaster with 2 samples.

Results

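Single-gene promoter summits are the peaks of Ets96B-eGFP binding whose highest point lies within 500 bp of a transcription start site (TSS) of exactly 1 protein-coding gene. The rule used the position of each summit and the Ensembl annotation of protein-coding transcripts, and no measured signal. It took 1684 reproducible summits, which is 21.0% of all (95% interval 20.1 to 21.9). Of the rest, 772 lay within 500 bp of start sites of more than 1 gene and are called shared-promoter summits, and 5559 lay farther from any such site. The name holds for protein-coding genes alone, since 112 of the 1684 also had the start of a non-coding transcript of another gene within 500 bp.

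The material was whole Drosophila melanogaster prepupae, male and female pooled and aged 24 h, from 1 transgenic line with a stable insertion that carries Ets96B fused to GFP at its C terminus. Chromatin was precipitated with an antibody to GFP, and a separate label gives Ets96B as the antibody. Both libraries belong to 1 group and are biological replicates 2 and 3, and a control alignment entered the peak calls. There was no second condition, so the comparisons are between classes of region, with the rule repeated on as many of the strongest peaks of each replicate list, and no test over samples can be made. Because whole animals were used, binding in many cells and strong binding in few cells cannot be told apart.

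Ets96B belongs to the PEA3 subfamily of ETS transcription factors, which recognise DNA around a GGAA core and often act downstream of receptor tyrosine kinases. A promoter is the stretch around a TSS where RNA polymerase is assembled, and regulatory proteins usually bind just upstream of it. In the compact fly genome many genes start back to back and share an upstream stretch, while others start alone. The prepupa is the stage at which pulses of the steroid hormone ecdysone begin to turn larval tissues into adult ones.

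Sequences of 101 bases centred on a summit show the kind of DNA in this class. They were read from the RefSeq copy of the dm6 assembly, on the strand of the gene, 5′ to 3′, from windows that overlap no annotated exon. The 3 strongest such members are shown for their base composition, with capitals marking runs of at least 8 bases made only of A and T. They lie upstream of larp, which encodes an RNA-binding La-related protein (chr3R:28326537-28326637, minus strand), of CG18549 (chr3R:12449120-12449220, plus strand) and of CG14100 (chr3L:19590564-19590664, minus strand). Their G+C content was 34.7%, 23.8% and 28.7%, against 42.2% over the arms.
larp: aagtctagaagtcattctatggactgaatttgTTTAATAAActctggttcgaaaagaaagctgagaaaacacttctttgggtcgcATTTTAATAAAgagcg
CG18549: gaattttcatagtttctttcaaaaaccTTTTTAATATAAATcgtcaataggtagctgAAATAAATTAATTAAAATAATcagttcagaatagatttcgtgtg
CG14100: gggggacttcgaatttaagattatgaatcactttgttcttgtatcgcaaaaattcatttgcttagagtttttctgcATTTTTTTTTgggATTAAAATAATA
Strong members with the homeodomain core TAATTA, in capitals, are shown because the share of summits with this word differed between the promoter classes. They lie at C1GalTA, which encodes a galactosyltransferase for O-linked sugar chains (chr2L:8951335-8951435, minus strand), CG3961 (chr3L:18890760-18890860, minus strand) and CG5953 (chr2L:16533209-16533309, minus strand).
C1GalTA: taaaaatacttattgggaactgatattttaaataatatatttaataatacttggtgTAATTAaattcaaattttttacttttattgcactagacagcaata
CG3961: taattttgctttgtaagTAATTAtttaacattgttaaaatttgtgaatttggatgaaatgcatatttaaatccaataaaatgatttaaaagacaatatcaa
CG5953: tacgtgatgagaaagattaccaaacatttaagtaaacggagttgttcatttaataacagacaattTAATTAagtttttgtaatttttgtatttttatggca
Strong members with the ETS core CCGGAA on either strand, in capitals, are shown because this is the word of the factor's own family. They lie at Ptpmeg2, a protein tyrosine phosphatase gene (chrX:9646076-9646176, minus strand), Nepl19, a neprilysin-like peptidase gene (chr3R:28880235-28880335, minus strand) and Best1, a bestrophin chloride channel gene (chr3R:10170615-10170715, minus strand). Their signal ranks of 430, 883 and 1188 among all reproducible summits were lower than those of the other sets shown above.
Ptpmeg2: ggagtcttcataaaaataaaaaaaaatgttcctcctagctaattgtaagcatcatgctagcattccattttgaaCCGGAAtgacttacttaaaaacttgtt
Nepl19: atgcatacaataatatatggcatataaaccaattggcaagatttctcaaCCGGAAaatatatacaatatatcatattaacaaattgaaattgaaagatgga
Best1: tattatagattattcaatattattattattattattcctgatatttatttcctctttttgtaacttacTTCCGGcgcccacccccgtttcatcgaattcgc
Strong members with the GAGA repeat GAGAGA, in capitals, are shown because this word was more frequent here than at shared promoters. They lie at Cat, which encodes catalase (chr3L:18822862-18822962, plus strand), nebu (chr3L:12843215-12843315, minus strand) and rdx, which encodes an adaptor of a ubiquitin ligase (chr3R:13983643-13983743, minus strand).
Cat: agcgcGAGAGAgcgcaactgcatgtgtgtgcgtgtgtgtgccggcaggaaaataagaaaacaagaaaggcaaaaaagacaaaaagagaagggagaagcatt
nebu: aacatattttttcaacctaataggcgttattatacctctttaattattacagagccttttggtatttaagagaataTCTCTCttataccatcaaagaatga
rdx: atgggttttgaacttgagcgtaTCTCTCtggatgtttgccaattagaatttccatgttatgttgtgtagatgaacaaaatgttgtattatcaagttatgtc

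Single-gene promoters held more summits than their share of the genome. Bases within 500 bp of a start site of exactly 1 gene made up 13.3 Mb, or 9.97% of the 133.9 Mb of the arms 2L, 2R, 3L, 3R, 4 and X. The density was 126 summits per Mb of this territory (95% interval 120 to 132), which is 2.11 times the density over all arms. In the replicate 2 and replicate 3 lists it was 131 and 128 per Mb. Shared-promoter territory was denser, with 389 summits per Mb (362 to 417), and the replicates gave 427 and 380. Outside promoters the density was 46.9 per Mb (45.7 to 48.1), with 45.7 and 46.9 in the replicates. The order of the 3 classes was the same in every list, and their intervals did not overlap. Intervals here are exact binomial or Poisson ones and cover counting error only, and the read depth behind each peak is unknown from these files.

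Members lay mainly upstream of the start site. Of the 1684, 1305 (77.5%, 75.4 to 79.5) were upstream of the nearest TSS, with 75.3% and 76.5% in the replicate 2 and replicate 3 lists. The median position was -161 bp (negative values are upstream), and the replicates gave -155.5 and -152 bp. Shared-promoter summits sat closer, with a median of -105 bp and 80.7% upstream. Per Mb of territory at a given distance, members were densest from -200 to -151 bp, at 367 summits per Mb (321 to 418). Density was 156 per Mb (129 to 189) in the last 50 bp before the TSS and 52.3 per Mb or lower in every bin from 100 bp downstream.

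**Figure D1:**
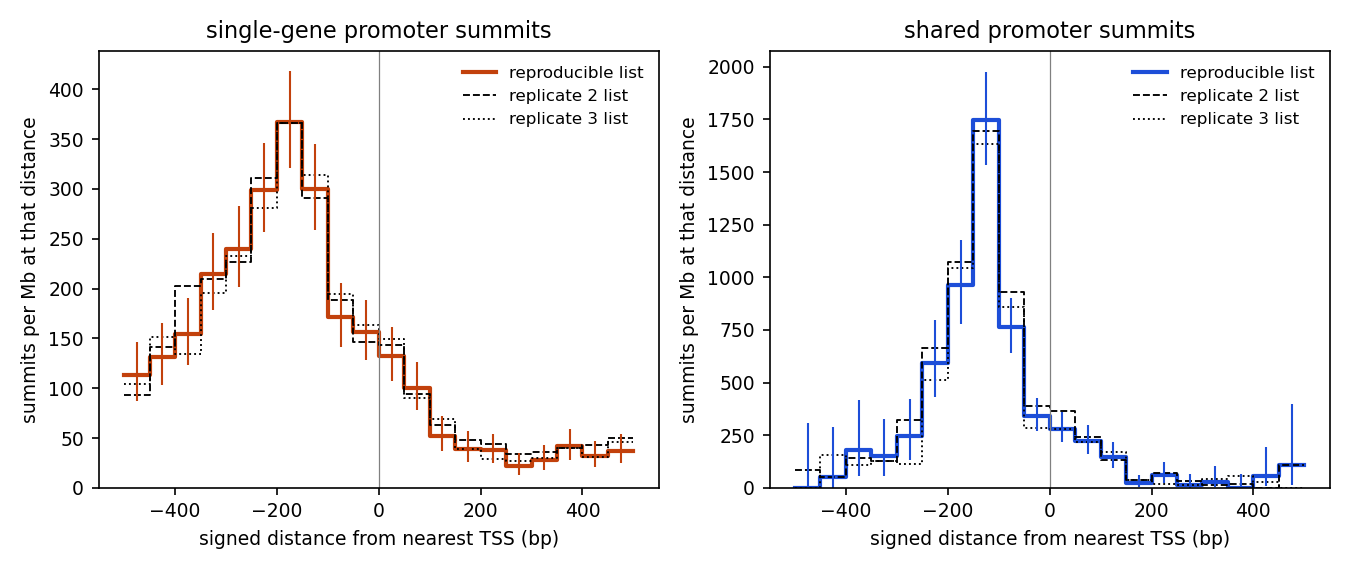
Summits per Mb of territory against the signed distance from the nearest TSS, in bins of 50 bp, for single-gene promoter summits (left) and shared-promoter summits (right); vertical bars are 95% Poisson intervals of the reproducible list and thin lines are the replicate lists. Single-gene promoter summits form a broad upstream hump with its top of 367 per Mb from -200 to -151 bp, and the shared ones a narrower one; the vertical scales differ.

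The position of a member went with its strength and its base composition. Proximal upstream summits, from -250 to -51 bp, numbered 714, with a median signal of 325 and a mean G+C content of 33.1% in the window of 50 bp to either side of the summit. Distal upstream summits, from -500 to -251 bp, numbered 481, with a median signal of 347 and 30.6% G+C. These upstream groups were alike in strength. Summits at the start site, from -50 to 50 bp, numbered 207 and were the weakest, with a median signal of 196 and 46.0% G+C, and 4 of them were among the 500 strongest summits. Downstream summits, from 51 to 500 bp, numbered 282, with a median signal of 261 and 38.7% G+C. The start-site group had the lowest median signal in each replicate list too, at 79.0 and 125, against 128 and 205 for proximal upstream summits. The signal is the authors' own score per peak, and it orders peaks within 1 list only.

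Promoter windows of genes without a member give the base composition that goes with position alone. At the median position of the proximal upstream group such windows averaged 38.4% G+C, and at that of the distal group 38.5%, both above the member values of 33.1% and 30.6%. At the start site the order was the other way round, with 46.0% at members and 43.5% at promoters without a member. Downstream, members had 38.7% and promoters without a member 46.6%. Members were thus poorer in G+C than promoter DNA at the zone's median position in 3 of the 4 zones. Because members are spread over each zone, position is matched only roughly.

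By annotation, members were rare in coding sequence. Of the 1684 summits, 658 (39.1%) were intergenic, 650 (38.6%) in introns, 293 (17.4%) in 5′ UTRs, 39 (2.32%) in 3′ UTRs, 33 (1.96%) in non-coding transcripts and 11 (0.653%, 0.327 to 1.17) in coding exons. Coding exons made up 26.0% of the single-gene promoter territory. Per Mb, members numbered 218 in intergenic bases, 186 in introns, 109 in 5′ UTRs and 3.18 (1.59 to 5.68) in coding exons. The majority, 891 (52.9%), lay inside the body of their own gene, which includes those upstream of an internal start site, and 162 (9.62%) lay inside the body of another coding gene.

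The next gene's start was usually at some distance. The median distance from the member's TSS to the nearest start of another coding gene was 3408 bp. In 187 cases (11.1%) it was within 1000 bp, and 146 of those neighbours faced the other way in a divergent arrangement. Another reproducible summit lay within 5 kb of 65.6% of members (63.2 to 67.8), against 54.9% (51.3 to 58.5) of shared-promoter summits and 75.7% (74.6 to 76.8) of summits outside promoters. By this measure members were more often accompanied than shared-promoter summits and less often than the rest.

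In signal, single-gene promoters resembled the other classes at the median, and both promoter classes were more frequent at the top of the list than over all of it. Members had a median signal of 294 (quartiles 196 and 585, range 148 to 5811), against 323 for shared-promoter summits and 289 for summits outside promoters. The median of members was 0.910 times that of shared-promoter summits, with 0.959 and 0.855 in the replicates, so it was lower in all 3 lists, but within the stronger 50% of the reproducible list the ratio was 1.09 and the order turned. Against summits outside promoters the ratio was 1.02, with 0.979 and 0.988 in the replicates, so the side of 1 was not stable. Members made up 148 of the 500 strongest summits (29.6%, 25.6 to 33.8; replicates 31.8% and 29.6%) and 105 of the 500 weakest (21.0%, 17.5 to 24.8; replicates 24.2% and 22.0%). Shared-promoter summits made up 14.8% of the 500 strongest (11.8 to 18.2; replicates 15% and 14.2%), against 9.63% of all summits, so the surplus at the top was present in both promoter classes.

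**Figure D2:**
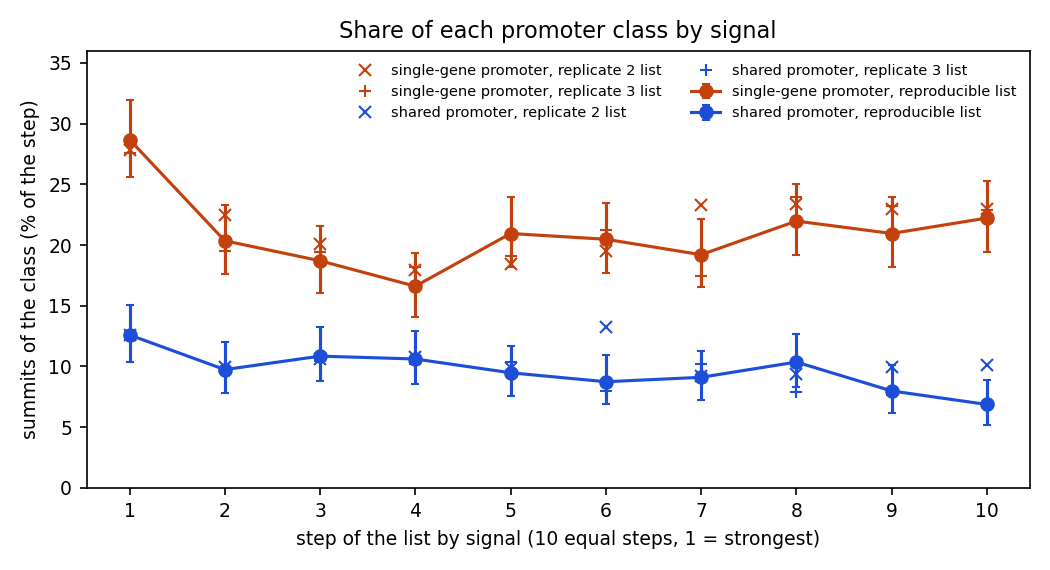
Share of single-gene (orange) and shared-promoter (blue) summits in each of 10 equal steps of a list by signal, strongest first; dots with bars are the reproducible list with 95% binomial intervals, crosses and plus signs the replicate lists. Single-gene promoter summits make up 28.7% of the strongest step, 16.6% of the fourth and 22.2% of the weakest.

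Among members, strength went with distance from the TSS and with base composition. When members were ordered by signal and cut into 5 equal groups, the mean G+C content ran 29.0%, 32.1%, 34.6%, 37.3% and 41.5% from the strongest to the weakest. The median position ran -196, -187, -165, -129 and -75.5 bp, and the share upstream of the TSS ran 86.4%, 84.0%, 77.4%, 70.9% and 68.8%. All 3 measures kept 1 direction over the 5 groups. Promoters without a member, read at the same median positions, had 38.2% G+C at the position of the strongest group and 41.1% at that of the weakest, a narrower span than among members.

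The strongest member was at Ugalt, which encodes a transporter of UDP-galactose into the Golgi. Its summit at chrX:2703882 was 30 bp upstream of the TSS, had a signal of 5811, and ranked 1 among reproducible summits, 3 in replicate 2 and 1 in replicate 3. This makes it an exception to the weak start-site group. Next came larp (signal 5160, ranks 4 and 2 in replicates 2 and 3), CG18549 (5016, ranks 5 and 3), CG14100 (4615, ranks 9 and 4) and PNPase, which encodes a mitochondrial polynucleotide phosphorylase (4465, ranks 11 and 7). The PNPase summit lay 79 bp downstream of the start, in the 5′ UTR. Of the 20 strongest, the other summits were at CG13921, osp, Hsp27, ph-p, Fkbp14, Gapdh2, gish, mRpL41, Tina-1, Lpin, C1GalTA, Rtnl1, Trp1, CG1888 and CG31145. In neither replicate did any of the 20 rank worse than 68, and 19 were upstream of the TSS.

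The roles of these genes are mixed. Hsp27 encodes a small heat shock protein, and its summit lay 153 bp upstream with a signal of 3726 and rank 22 in the reproducible list and in each replicate. Gapdh2, a gene of glycolysis, had a summit at -157 bp with a signal of 3312. Lpin encodes the phosphatidate phosphatase lipin of fat metabolism and had a summit at -256 bp with a signal of 3017. Trp1 encodes a translocation protein of the endoplasmic reticulum (-130 bp, signal 2753), gish a casein kinase (-166 bp, 3194) and mRpL41 a mitochondrial ribosomal protein (-138 bp, 3151). ph-p encodes a Polycomb group protein and has a near-identical neighbouring copy, ph-d, so reads could be split between these genes and the strength of their summits (3489 and 863) is uncertain.

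The weakest members were at ptc, the Hedgehog receptor gene, and at CG17778, Mpcp2, sty and CG11550, with signals from 147.7 to 148.0. At the edge of the rule, sug, zormin and CG3919 were just inside with summits 499, 497 and 497 bp from the TSS and signals of 252, 561 and 268. CG42514, Cbs and l(3)L1231 were just outside at 501, 502 and 504 bp, with signals of 209, 410 and 222. So few summits cannot show whether strength differs across the limit.

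Most members were found in both replicate lists, from which the reproducible list was made, so this is a description and not an independent check. Of 1684 members, 1654 (98.2%, 97.5 to 98.8) overlapped a peak of both lists of 30000, and 1576 (93.6%) had a summit within 100 bp in both. Among the strongest peaks of both replicates, cut to the length of the reproducible list, were 1377 members (81.8%, 79.8 to 83.6), against 84.3% (81.6 to 86.8) of shared-promoter summits and 81.3% (80.2 to 82.3) of summits outside promoters. The median offset between a member's summit and its replicate counterpart was 11 bp in replicate 2 and 12 bp in replicate 3. Some members differed widely in rank between replicates. The summit at br, the Broad gene of metamorphosis, ranked 19817 in replicate 2 and 4225 in replicate 3, and that at ksr, a scaffold of Ras signalling, 23040 and 7209.

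The DNA under the summits was poor in G+C. Member windows averaged 34.9% G+C ± 11.2 (SD over 1684 windows), and windows centred 400 bp to either side averaged 43.1% ± 10.7. The replicate lists gave 34.9% and 35.2% at the summit and 43.2% and 42.9% in the flanks. Shared-promoter summits were poorer, at 29.7% ± 8.99 with flanks at 47.7%, and summits outside promoters had 31.2% ± 8.35 with flanks at 44.7%. The dip was thus shallowest at single-gene promoters, and this held in both replicate lists.

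**Figure D3:**
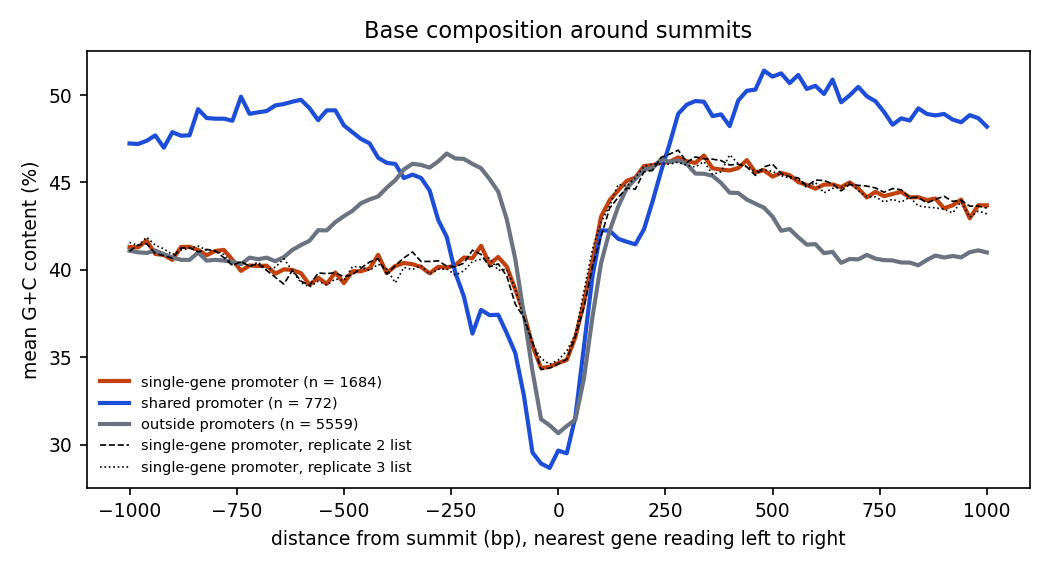
Mean G+C content in steps of 20 bp around the summit, with the nearest gene reading left to right, for single-gene promoter summits (orange), shared-promoter summits (blue) and summits outside promoters (grey); thin black lines are single-gene promoter summits of the replicate lists. Single-gene promoters show a dip at the summit and higher G+C content on the gene side than on the upstream side, and the replicate lines lie on that of the reproducible list.

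Long stretches of A and T were common. A run of at least 12 bases made only of A and T occurred in 614 member windows (36.5%, 34.2 to 38.8; replicates 36.4% and 35.5%), against 16.9% (15.6 to 18.2) of the flanking windows. Shared-promoter summits had it more often, at 52.3% (48.7 to 55.9), and summits outside promoters at 38.9% (37.6 to 40.2). In 10873 windows at promoters without a member, centred at -161 bp, the share was 27.2% (26.3 to 28.0).

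Short words were counted on both strands within 50 bp of the summit, and a word found there is a description of the letters and not a binding site. The ETS core CCGGAA occurred at 27 members (1.60%, 1.06 to 2.32), against 2.79% of flanking windows and 1.87% of windows at all 13710 single-gene promoter start sites. The replicate lists gave 1.60% and 1.70% at summits, against 2.99% and 2.79% in the flanks. The word was therefore less frequent at the summit than beside it in every list, and the summit windows were also poorer in G+C. At shared promoters it was in 2.33% of windows and outside promoters in 0.809%. The longer ETS site CCGGAAGT, which contains the core, occurred at 2 members. By position, the core was at 5.31% of the 207 members in the start-site zone, against 2.72% at that zone's median position in promoters without a member. This was also the only zone where members were richer in G+C than those promoters. In the other zones the core was less frequent at members. The shares were 0.416% of 481 members against 2.63% in the distal upstream zone, 1.12% against 1.95% in the proximal one, and 2.13% against 5.23% downstream. All these member shares rest on few windows.

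Words rich in A and T were more frequent at summits than beside them, and these windows also differed in G+C content, as given above. The homeodomain core TAATTA was at 146 members (8.67%, 7.37 to 10.1; replicates 8.10% and 8.57%), in 6.21% of flanks and in 8.11% of all single-gene promoter windows. Shared-promoter summits had it in 15.9% (13.4 to 18.7; replicates 17.2% and 16.0%). The TATA word TATAAA was at 22.6% of members, in 12% of flanks and in 16.3% of all single-gene promoter windows. The A tract AAAAAA was at 31.1%, 19.5% and 22.3% of the same windows. The GATA site AGATAA, a word of GATA factors, was at 8.43% of members (7.15 to 9.86), in 5.64% of flanks and in 7.24% of all single-gene promoter windows.

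Words known from core promoters and chromatin factors divided the promoter classes. The GAGA repeat GAGAGA was at 6.77% of members (5.62 to 8.08; replicates 6.56% and 7.11%), against 1.42% (0.713 to 2.54; replicates 1.53% and 1.59%) of shared-promoter summits. It was about as frequent in the members' flanks, at 5.91%, and in all single-gene promoter windows, at 6.61%. The DNA replication-related element TATCGATA was at 0.713% of members (0.369 to 1.24), against 2.59% (1.59 to 3.97) of shared-promoter summits, and the Motif 1 core GGTCACAC at 0.475% (0.205 to 0.934), against 1.81% (0.995 to 3.02). Both of these words mark promoters of broadly expressed genes in flies. The CACA repeat CACACA was at 8.91% of members and in 12.4% of flanks. In all single-gene promoter windows these 3 words occurred in 0.642%, 0.350% and 8.51%.

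The remaining words were rare or alike. The AP-1 site TGANTCA was at 2.43% of members and in 1.66% of flanks, the nuclear receptor word AGGTCA at 1.96% and in 2.23%, and the Motif 7 core CAGCNCTG at 1.37% and in 1.22%. The E-box CACGTG was at 0.891% and in 0.980%, the Zelda site CAGGTAG at 0.297% and in 0.683%, and the CRE TGACGTCA at 0.178% and in 0.119%. The Grainy head site AACCGGTT was at 0 of 1684 members, which allows a share of up to 0.178%, and in 0.267% of flanks. In all single-gene promoter windows these 7 words were in 2.39%, 2.30%, 1.02%, 1.15%, 0.613%, 0.197% and 0.277%, and the longer ETS site was in 0.102%.

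The 1684 summits belonged to 1417 of the 13945 protein-coding genes, and 10.2% is the share against which the gene lists are read (10.4% in replicate 2 and 10.3% in replicate 3). A further 1446 genes (10.4%) had shared-promoter summits only. Genes with a member had more start sites and were longer than genes with shared summits only. More than 1 annotated start was present in 834 (58.9%) of the genes with a member, against 33.5% of genes with shared summits only and 26.5% of all. The median gene length was 6176 bp, against 2382.5 and 2166 bp.

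Genes with more start sites had members more often, both per gene and per Mb of territory. Of genes with 1 start site, 5.69% had a member, of those with 2, 16.2%, of those with 3, 30.3%, and of those with 4 or more, 47.3%. Per Mb of their single-gene territory the densities were 80.6 (74.3 to 87.2), 159 (145 to 174), 203 (179 to 229) and 227 (203 to 252). With genes cut into 5 equal groups by length, shortest first, the share with a member was 2.54%, 5.23%, 6.54%, 11.6% and 24.9%. The share with shared summits only ran 5.69%, 10.9%, 13.7%, 14.3% and 7.39%, so the longest genes stood out for members alone. In 582 genes whose starts span over 1000 bp, 246 of 803 members (30.6%, 27.5 to 34.0) were at the most upstream start, and 29.5% of the start sites of these genes are such sites.

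Most genes had a single member. One was found in 1209 genes, 168 had 2, 26 had 3, 9 had 4 and 5 had 5. The genes with 5 were Rtnl1, a reticulon of the endoplasmic reticulum, Ptpmeg2, SNF4Agamma, the gamma subunit of the energy sensor AMP-activated kinase, pyd, a junction protein of the ZO-1 type, and shn, a zinc-finger cofactor of Dpp signalling. At Rtnl1 the signals were 2845, 429, 829, 653 and 960, over 4 of its 7 start sites, all upstream of them. At Ptpmeg2 they were 666, 1299, 881, 1723 and 320, over 4 of 6 start sites. At shn the strongest had 586 and the others 281, 202, 151 and 165. Members of 1 gene thus differed several-fold in strength.

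Among the gene lists, housekeeping genes divided between the promoter classes, and the spacing of genes has to be read beside the counts. Of 75 mitochondrial ribosomal protein genes 2 had a member (2.67%, 0.325 to 9.30) and 26 had shared-promoter summits only. Of these genes 55 have all their starts within 500 bp of another gene's start. Among the 20 with a start that stands alone 2 had a member, against 13.4% of the 10426 genes of all kinds with such a start. For aminoacyl tRNA synthetases, which charge tRNAs, 1 of 32 had a member and 10 shared summits only. For oxidative phosphorylation the counts were 2 and 12 of 87, for the proteasome 3 and 6 of 48, for the spliceosome 2 and 7 of 31, and for the secretory pathway 5 and 15 of 48. Autophagy genes had 3 and 8 of 21, the vacuolar proton pump 1 and 4 of 33, Rab GTPases of vesicle traffic 1 and 4 of 35, and DNA replication 0 and 5 of 27, where a count of 0 allows up to 11.1%. In each of these lists shared summits were the more frequent kind, and so it was in both replicate lists. Over all genes the kinds were about equal, at 10.4% with shared summits only and 10.2% with a member. A shared summit counts for every gene with a start within 500 bp, and a member for 1 gene. The share with shared summits only was near the 10.4% for Rab GTPases (11.4%), the proton pump (12.1%), the proteasome (12.5%) and oxidative phosphorylation (13.8%). Counted over genes with a start that stands alone, members were at 3 of 10 autophagy genes, 5 of 24 of the secretory pathway (20.8%) and 2 of 11 of the spliceosome (18.2%), all above the 13.4%. The other lists were under it, with 3 of 26 for the proteasome, 1 of 12 for tRNA synthetases, 1 of 23 for the proton pump, 1 of 24 for Rab GTPases, 2 of 51 for oxidative phosphorylation and 0 of 15 for DNA replication. The side depended on the window for some lists. With 200 bp around the start in place of 500 bp, all genes had 8.07%. Counted over all genes of a list, those that turned to above it were tRNA synthetases (5 of 32) and DNA replication (3 of 27). The spliceosome (3 of 31) and the proteasome (4 of 48, 8.33%) turned too.

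**Figure D4:**
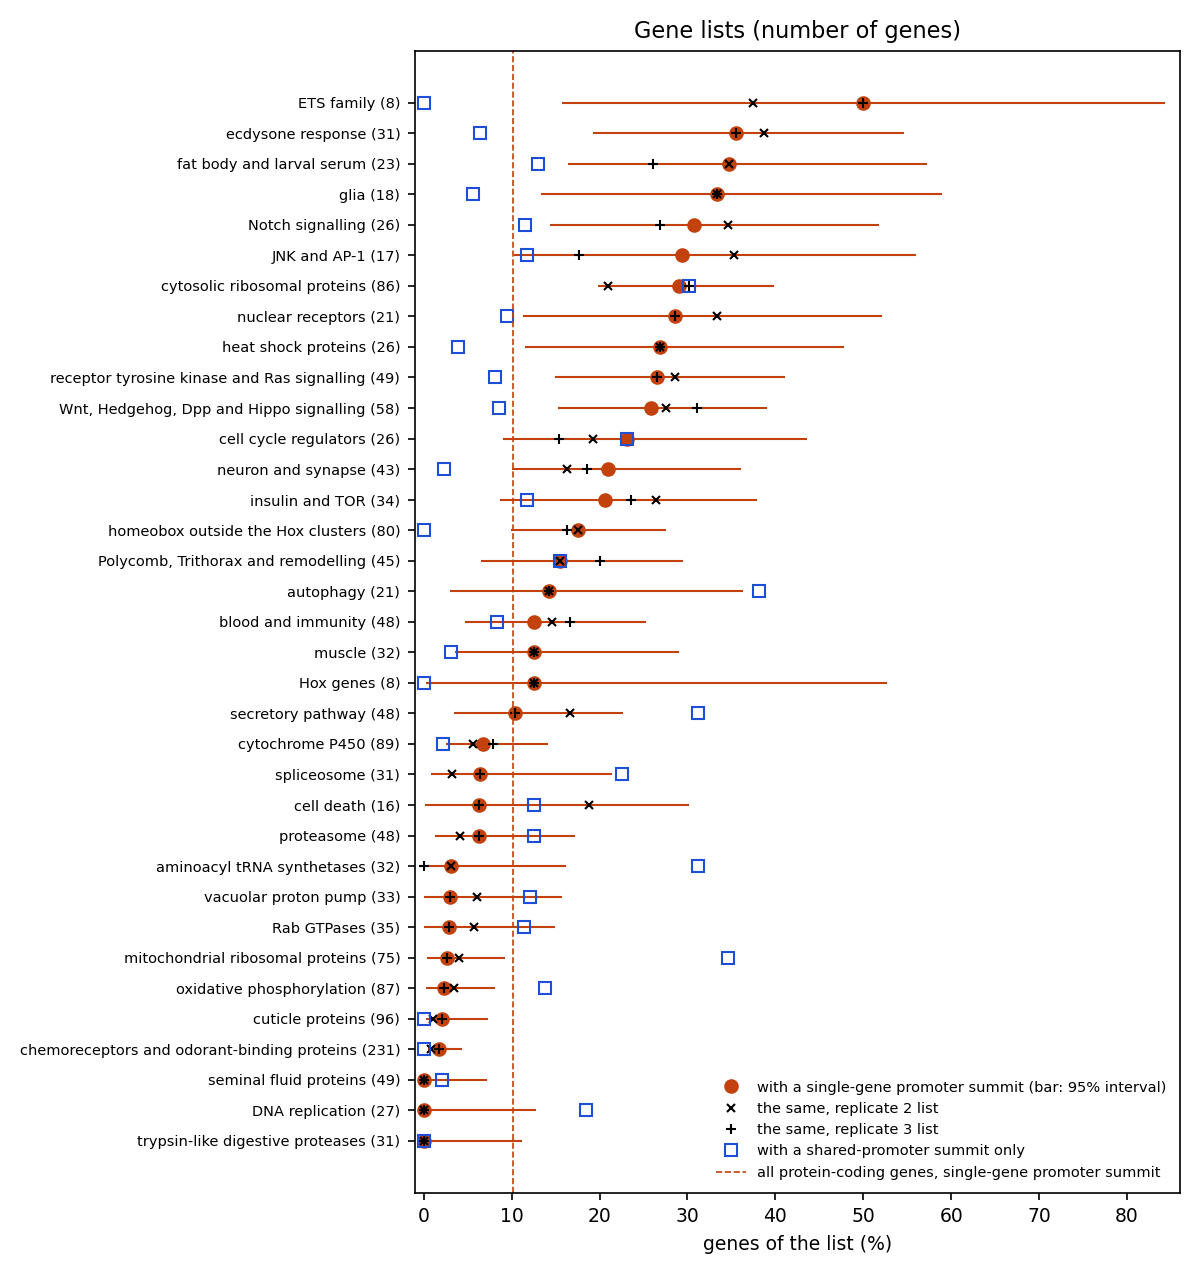
Percent of the genes of each list (number of genes in brackets) with a single-gene promoter summit, as orange dots with 95% binomial intervals, with crosses and plus signs for the replicate lists; blue squares are genes with shared-promoter summits only, and the dashed line is the 10.2% of all protein-coding genes. Ecdysone response, Notch and receptor tyrosine kinase lists lie right of the line, and oxidative phosphorylation, cuticle and chemoreceptor lists left of it.

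Cytosolic ribosomal protein genes had members more often than the housekeeping lists above, although shared summits were slightly more frequent here too. Of 86, 25 had a member (29.1%, 19.8 to 39.9; replicates 20.9% and 30.2%) and 26 had shared summits only, with 18 and 23 in replicate 2 and 26 and 27 in replicate 3. In the stronger 50% of the list 3 of 86 had a member (3.49%), under the 5.49% of all genes there, and windows of 200 and 1000 bp around the start, in place of 500 bp, gave 37 and 14. Of the 55 with a start that stands alone, 45.5% had a member. These summits were weak and lay at the start site itself. Their median position was 0 bp, with 16 and -15.5 bp in the replicates, and they ran from -216 to 93 bp. Within 50 bp of the start were 16 of the 25, against 170 of the 1417 genes with a member overall. The strongest were at RpL30 (signal 358, at 0 bp), RpS4 (354, at 33 bp), RpL24 (333, at 9 bp) and RpL11 (288, at -75 bp), and the median signal was 196, with a median rank of 6113 among all reproducible summits. Their windows averaged 43.2% G+C, against 34.3% over the strongest members of all genes. RpS14b has a near-identical neighbouring copy and RpS5a, RpS10b and RpS15Aa have close paralogues, so their summits are uncertain.

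**Figure D5:**
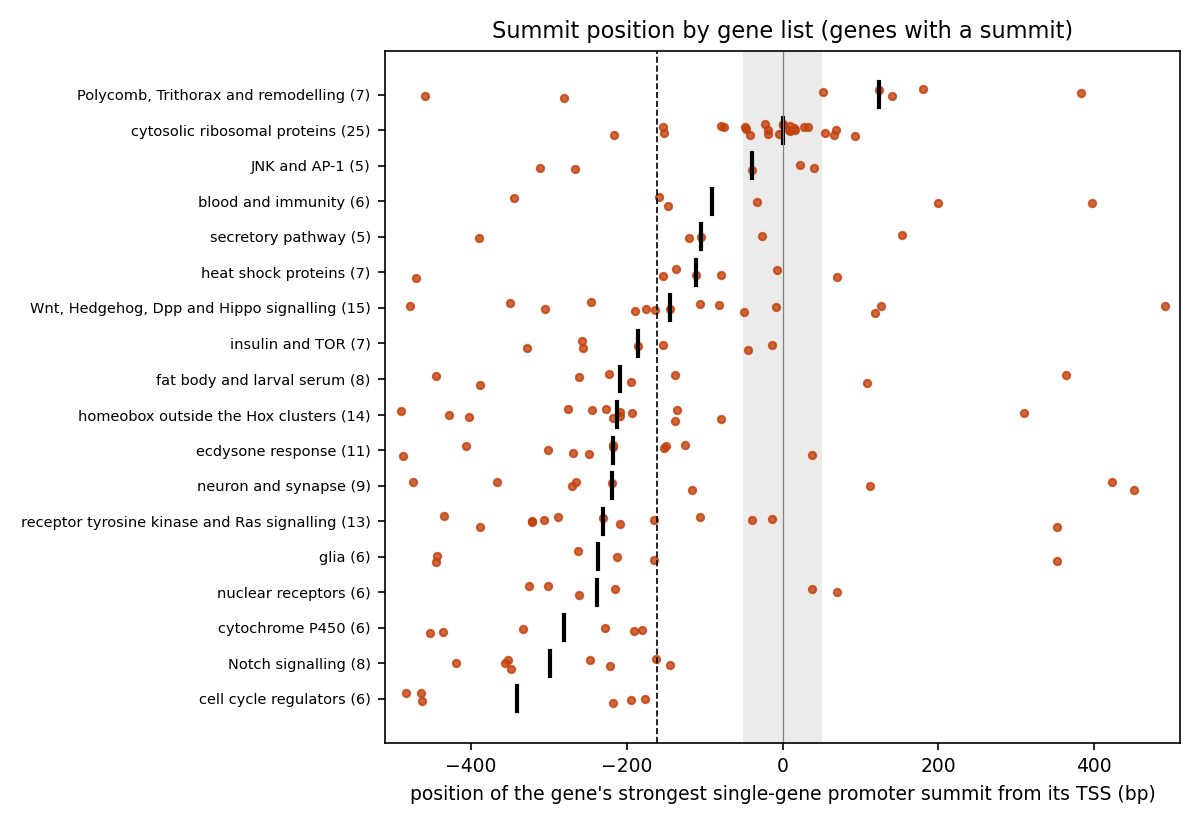
Position, relative to the TSS, of the strongest single-gene promoter summit of each gene, for gene lists with at least 5 such genes (number in brackets); thick bars are medians, the dashed line is the median of -161 bp of all genes with such a summit, and the grey band marks 50 bp to either side of the start. Cytosolic ribosomal protein genes crowd in the band, with 16 of 25, and Notch signalling genes lie upstream of it.

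Hormone response genes were frequent in this class. Neither this list nor those below were matched for gene length or number of start sites. Of all genes, the share with a member ran from 2.54% in the shortest of 5 length groups to 24.9% in the longest. It ran from 5.69% with 1 start site to 47.3% with 4 or more. Of 31 ecdysone response genes 11 had a member (35.5%, 19.2 to 54.6; replicates 38.7% and 35.5%) and 2 had shared summits only. The 200 bp window left 7 (22.6%), above the 8.07% of all genes at that setting. The strongest was at E23, an ABC transporter gene induced by ecdysone, with a signal of 2205 at -249 bp and ranks 69 and 142 in the replicates. Eip75B, a nuclear receptor of the early response, followed with 1323 at 38 bp, mamo, a zinc-finger factor gene, with 1102 at -406 bp, and Eip93F, a factor of late metamorphosis, with 748 at -125 bp. EcR, which encodes the ecdysone receptor itself, had a member at -301 bp with a signal of 401 and ranks 2689 and 2877. Of 21 nuclear receptor genes, 6 had a member (28.6%), and Hnf4, a regulator of fat metabolism, had 974 at -261 bp. EcR and Eip75B are in both lists.

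In the factor's own family, 4 of 8 ETS genes had members. The pointed gene pnt, an activator in receptor tyrosine kinase signalling, had 2, the stronger with a signal of 437 at -266 bp and ranks 3685 and 2202 in the replicates. Eip74EF, an ETS gene of the ecdysone response, had 2, with 393 at -269 bp, and aop, the repressor Yan that opposes pnt, had 2, with 249 at -389 bp. Ets21C had 1 with 158 at -172 bp. Against the member median of 294, pnt and Eip74EF were above it and aop and Ets21C below it. At Ets96B no member was found, and its nearest reproducible summit was 18703 bp from its start sites. The nearest summits to Ets97D, Ets65A and Ets98B were 2693, 2776 and 29623 bp away.

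Signalling pathway genes had members more often than all genes, without matching for gene length or number of start sites. Of 49 receptor tyrosine kinase and Ras genes, 13 had one (26.5%, 14.9 to 41.1; replicates 28.6% and 26.5%) and 4 had shared summits only. The 200 and 1000 bp windows gave 6 and 21. The strongest were at puc, a phosphatase that feeds back on JNK (signal 1680 at -39 bp), at the EGF-type ligand gene spi (1678 at -230 bp), at aos, an inhibitor of that ligand (1136 at -306 bp), and at Mkp3, a phosphatase of the MAP kinase (1003 at -435 bp). All other members of the list were weaker by this choice, among them sty (148), ksr (183) and receptor genes. htl, an FGF receptor gene, had 552, InR, the insulin receptor gene, 246 for the strongest of 3, and Egfr 182, whose ranks of 11948 and 6127 differed between replicates.

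Of 26 Notch signalling genes 8 had a member (30.8%, 14.3 to 51.8; replicates 34.6% and 26.9%), and 3 with the 200 bp window. They were gro, which encodes the corepressor Groucho (signal 1536 at -163 bp), numb, an inhibitor of Notch (1393 at -145 bp), the target genes E(spl)m3-HLH (1229 at -419 bp), E(spl)m7-HLH (1198 at -349 bp) and E(spl)mbeta-HLH (339 at -221 bp), neur, a ubiquitin ligase of the ligands (973 at -247 bp), the coactivator gene mam with 4 (strongest 851 at -356 bp), and N itself (166 at -352 bp). All 8 strongest summits were upstream, with a median position of -298 bp, and their median rank was 632.5. The summits of E(spl)mbeta-HLH, E(spl)m3-HLH, E(spl)m7-HLH and gro lie in 1 stretch of 3R, from 26006244 to 26042478. These genes are therefore not separate loci. The symbols Dl and Bearded of this list matched no gene. Of 58 Wnt, Hedgehog, Dpp and Hippo genes 15 had a member (25.9%; replicates 27.6% and 31.0%). There sgg, the kinase that marks Armadillo for destruction, had 1744 at -190 bp, nkd, an inhibitor of Wingless, 672 at -145 bp, Mer, the fly merlin, 666 at 119 bp, and ft, an atypical cadherin, 619 at -478 bp. The JNK and AP-1 list had 5 of 17, with 35.3% and 17.6% in the replicates. Insulin and TOR genes had 7 of 34, among them Lpin, REPTOR, a factor repressed by TOR (1701 at -154 bp), Pi3K21B (816 at -185 bp) and foxo (402 at -257 bp). The receptor tyrosine kinase and Ras list shares puc with the JNK and AP-1 list, and InR with the insulin and TOR list. It also shares mirr with the homeobox list below, so these counts are not separate.

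Homeobox genes outside the Hox clusters had members in 14 of 80 (17.5%, 9.91 to 27.6; replicates 17.5% and 16.3%) and shared summits only in 0, which allows up to 3.75%. All 80 have a start that stands alone, and of all genes with such a start 13.4% had a member. With the 200 bp window 4 of 80 had a member, under the 8.07% of all genes at that setting, so the side turned. NK7.1 was the strongest (signal 2632 at -402 bp), followed by the heart gene tin (1342 at -218 bp), the gap gene hb (502 at 310 bp), which encodes a zinc-finger protein and not a homeodomain, and PHDP (495 at -490 bp). In the Hox clusters abd-A had 1 summit (178 at -83 bp) and the other 7 genes had none. Polycomb, Trithorax and remodelling genes had 7 of 45, with ph-p and ph-d followed by Trl, which encodes the GAGA factor (589 at 124 bp), and Psc (348 at 141 bp). Of these 7 genes 5 had their strongest summit downstream of the start. The medians over the list were 124 bp in the reproducible list, -129 bp in replicate 2 and 43 bp in replicate 3, so the side depended on the list of peaks.

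Lists of tissue genes were uneven. Heat shock genes had 7 of 26 (26.9%, also in each replicate), with Hsp27 first, then Hsp26 (signal 1026 at -111 bp), Hsp22 (440 at -471 bp) and the chaperone gene Hsp83 (428 at -79 bp), whose ranks were 7449 and 1817 in the replicates. The summits of Hsp22, Hsp26, Hsp23 and Hsp27 lie in 1 stretch of 3L, from 9373526 to 9383910, so these genes are not separate loci. Glial genes had 6 of 18 (33.3%, also in each replicate, but 1 of 18 with the 200 bp window, under the 8.07% of all genes there), led by loco (1002 at -444 bp), moody, a receptor of the blood-brain barrier (866 at -165 bp), and Gli, a protein of the tricellular junction (577 at 353 bp). Fat body genes had 8 of 23 (34.8%; replicates 34.8% and 26.1%; 3 of 23 with the 200 bp window), led by Gbs-70E, Hnf4 and the lipoprotein gene Apoltp. Neuronal genes had 9 of 43 (20.9%; replicates 16.3% and 18.6%), and 3 of 43 (6.98%) with the 200 bp window, again under the 8.07%. They were led by elav, a neuronal RNA-binding protein gene (1711 at -270 bp), Nrx-1, which encodes a neurexin (544 at 112 bp), and Rbp9 (436 at -367 bp). The next, at CadN, overlapped no replicate 2 peak.

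Cell cycle regulators had a member in 6 of 26 (23.1%), with 19.2% and 15.4% in the replicates, led by Dp, the partner of E2F (signal 1002 at -176 bp), and CycE (782 at -464 bp). For the remaining lists the share was near that of all genes or under it in the whole reproducible list with the 500 bp window. Muscle genes had 4 of 32 (12.5%), led by Msp300 (804 at -348 bp), and none with the 200 bp window. Blood and immunity genes had 6 of 48 (12.5%), led by cact, the inhibitor of Dorsal (1120 at -159 bp), and 2 in the stronger 50% of the list, where their share of 4.17% lay under the 5.49% of all genes. Of the cell death genes hid, an inducer of apoptosis, had the only member of 16 genes (1552 at -330 bp, ranks 268 and 319). The replicates gave 18.8% and 6.25%, so in replicate 2 the list lay above the 10.4% of all genes. It was also above with the 1000 bp window (12.5% against 11.1%) and in the stronger 50% of the list (6.25% against 5.49%). Cytochrome P450 genes had 6 of 89 (6.74%, 2.51 to 14.1), among them shd, whose product makes active ecdysone (259 at -436 bp). Cuticle protein genes had 2 of 96 (2.08%, 0.253 to 7.32), chemoreceptor and odorant-binding protein genes 4 of 231 (1.73%, 0.474 to 4.37), trypsin-like digestive proteases 0 of 31 and seminal fluid proteins 0 of 49, which allow up to 9.68% and 6.12%. Of the 96 cuticle genes, 92 have a start that stands alone.

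Across the arms the density of members in their territory was 148 per Mb on X (133 to 165), 131 on 3L, 124 on 2L, 118 on 2R, 117 on 3R and 83.7 on 4, where 9 summits were found. X had the highest density in each replicate list as well, at 147 and 151 per Mb. Its interval lay above those of 2R (105 to 131) and 3R (105 to 130) and overlapped those of 3L and 2L.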

How the data were processed

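Chromatin immunoprecipitation followed by sequencing was analysed from 2 biological replicates, numbered 2 and 3, of 1 group. The authors deposited peak lists on dm6, 30000 peaks for each replicate and for the pooled data and a shorter list of reproducible ones that pass an irreproducible discovery rate threshold, per the labels. The deposited signal value of each peak is the authors' own score; its scaling and the aligner, caller and threshold behind it were not given in the sources used here. No table held columns of other samples. Because the replicate lists stop at a fixed number, depth cannot be read from them, and each was used by its strongest peaks, as many as the reproducible list holds.

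Start sites of protein-coding transcripts came from Ensembl release 115 (BDGP6, 19607 sites of 13945 genes). Sequence came from the RefSeq copy of the same assembly. Python 3.11.15, pandas 2.3.3, numpy 2.4.6 and scipy 1.17.1 were used. Every summit was counted, also where an interval held more than 1. Densities are per Mb of bases that meet the rule. Words were counted on both strands within 50 bp of the summit and in windows centred 400 bp to either side. Exact Clopper-Pearson and Poisson intervals at 95% cover counting error, and a count of 0 is given the limit of 3 counts. Peaks and genes are not replicates, so no p-values were computed. The scripts were tested on simulated data.

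The members and the 35 gene lists were chosen with earlier results of these data known, so the lists are descriptions. Of the list symbols, 9 matched no gene and 18 matched through a synonym. The unmatched symbols were Dl and Bearded (Notch), Star (receptor tyrosine kinase), phm (cytochrome P450), GnfL (DNA replication), rough (homeobox), calypso (Polycomb), mf (muscle) and Trh (neuronal). They were left out of the counts, so these lists may be incomplete. Named genes are the 20 strongest members, up to 4 of the strongest genes per list, genes with the most members, members next to the 500 bp limit, the ETS family and those shown as sequence, which come from arms other than 2R; any other gene was chosen after its values were seen. Alternatives were other start-site windows (200 and 1000 bp), start sites of all gene types, the stronger part of the list (50% of summits), 1 summit per interval, each replicate alone and wider word windows.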

Additional observations from a re-analysis of the deposited data

How the results depend on the processing

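Values move with the start-site window by construction, since it sets the territory. With windows of 200 and 1000 bp the share of summits in the class was 14.7% and 25.9%, the density 184 and 96.9 per Mb, the share upstream 76.0% and 68.9%, members among the 500 strongest 18.8% and 36%, G+C content 35.9% and 34.3%, the homeodomain core 10.2% and 9.14%, and the ETS core 2.96% and 1.30%. The ratio of median signal to summits outside promoters was 0.893 and 1.03, and that to shared promoters was 0.708 at 200 bp. With start sites of all gene types the share was 22.3%, the density 118 per Mb, 75.6% were upstream, 31.8% of the 500 strongest were members and G+C was 34.5%. With the stronger 50% of the list the density was 63.2 per Mb (fewer summits), 765 genes had a member, 84.2% were upstream, G+C was 31.2%, the words were at 9.24% (homeodomain) and 1.42% (ETS), and the signal ratios were 1.09 to shared promoters and 1.16 to the rest, so the first changed side; the cause was not tested. With 1 summit per interval the density was 123 per Mb. Within 100 bp of the summit the homeodomain core was at 15.2% and the ETS core at 3.56%. Agreement of summits within 100 bp in both replicates was 93.6%.

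With 1 replicate left out, the share was 21.2% to 21.9%, the density 128 to 131 per Mb, the share upstream 75.3% to 76.5%, the ratio to summits outside promoters 0.979 to 0.988, members among the 500 strongest 29.6% to 31.8%, the homeodomain core 8.10% to 8.57%, the ETS core 1.60% to 1.70% and G+C 34.9% to 35.2%. Of the 35 gene lists, 21 had a higher share than all genes, and all 21 were also higher without replicate 2 and without replicate 3. The lists were not matched for gene length or number of start sites. Counted over genes with a start that stands alone, muscle and Hox genes (12.5% each) fell under the 13.4% of all such genes. Blood and immunity genes, at 14.0%, were near it. The number of lists above all genes was 17 to 22 over the alternatives run, but not of the same lists. With the 200 bp window 17 of the 21 stayed higher (homeobox, muscle, neuronal and glial genes fell under). There 4 others went above (proteasome, tRNA synthetase, DNA replication and spliceosome genes). With the stronger 50% of the list 16 of the 21 stayed higher (cytosolic ribosomal protein, autophagy, Hox, secretory pathway and blood genes fell under). With the 1000 bp window 20 did (autophagy fell under). Cell death genes went above with the 1000 bp window, in the stronger 50% of the list and without replicate 3. The number of genes with a member moved by over 1.5 times in 19 of 35 lists at 200 bp, 9 at 1000 bp, 23 in the stronger 50%, 2 without replicate 2 and 7 without replicate 3. With 2 replicates, this range is the only replicate error available. No paired analysis was possible because there is only 1 group. Single lists rest on few genes, and depth is unknown.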
